A study of Mus musculus with 11 samples.

Results

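Desmosomes are cell-cell junctions that anchor intermediate filaments to the plasma membrane. Their cadherins, the desmogleins and desmocollins, bridge neighbouring cells, and plakoglobin, plakophilins and desmoplakin form the plaque that ties the cadherins to keratin filaments inside the cell. Krt8, Krt18 and Krt19 encode the keratins of simple epithelia, where the type II keratin Krt8 pairs with the type I keratins Krt18 or Krt19, and these are among the earliest keratins of the mouse embryo. The genes described here are these 3 keratins, the desmosomal cadherins Dsg2 and Dsc2, the plaque proteins Dsp (desmoplakin), Pkp1, Pkp2 and Pkp3 (plakophilins), and Pkp4, a relative of the plakophilins that is found at adherens junctions and desmosomes. They are 10 genes given by name, by a rule that uses no measured value but was set with earlier results of these data known, out of 12588 genes listed in the bulk table and 29686 gene names in the single-cell tables. A row for 6 of them (Dsg2, Dsp, Pkp2, Pkp3, Pkp4 and Krt8) was found in the bulk table, and a column for all 10 in every single-cell table except the one labelled JupHigh, which had none for Dsc2.

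The study asked how mouse embryonic stem (ES) cells in soft agarose microgels differ from cells on plastic, and what overexpression of plakoglobin, the product of Jup, does. Bulk Smart-seq2 libraries of about 1000 cells each came from the line Rex1GFPd2 in 2iLIF, a medium with inhibitors of MEK and GSK3 and the cytokine LIF, and numbered 3 for gels and 3 for plastic. Single-cell libraries came from inDrop, which captures cells in droplets and counts unique molecular identifiers (UMIs) near the 3′ ends of transcripts. There was 1 library each of E14 wild-type cells in serum/LIF on plastic (the wild-type serum library), in serum/LIF in gels and in 2iLIF on plastic, and 1 each of cells labelled as having high (JupHigh) and low (JupLow) Jup overexpression from the constitutive CAG promoter, both in serum/LIF on plastic. Which line the overexpressing cells came from, and whether either is a single clone, is not given in the sources used here.

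Cells were barcodes with at least 1000 UMIs, and the 5 libraries held 112 to 2889 of them with a median of 1731.5 to 2465 UMIs. The bulk libraries held 637235 to 2583256 reads. No barcode was shared between the cells of any pair of libraries. The gel single-cell table broke off within its last line, all of its 891 barcodes began with A against 38.5% to 39.2% in the other tables, and 6418 of its gene columns were all 0 against 0 in the others, so its 112 cells may be only part of that library. In the wild-type serum/LIF table Sox2 had 0 UMIs, while the other libraries had 165 to 352 CPM (UMIs scaled to a common total for every library). Myl12a was likewise at 0 CPM there, against 353 to 985 CPM in the other libraries. Among genes that overlap members, Gm36026 at Krt8 had 1 UMI in that table and Gm16090 at Dsg2 had 11. The counts of Gm10129 at Dsp and Gm36938 at Pkp1 are not given here. Jup itself was at 47.8 CPM (95% interval 41.5 to 54.8) in the library labelled JupHigh and 37.9 CPM (31.1 to 45.7) in that labelled JupLow, a ratio of 1.26 (0.996 to 1.61). It was at 36.7 CPM (28.8 to 46.0) in the wild-type serum library, which overlaps both. These counts therefore do not separate the labels from each other or from wild type, and whether the transgene carries the part of Jup that the tags cover is not given in the sources used here. The ES cell genes Pou5f1 (398 to 585 CPM) and Nanog (82.8 to 539 CPM) were detected in all 5 libraries.

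All single-cell intervals below are exact 95% Poisson, binomial or conditional binomial intervals and cover counting error only. Where a library had 0 UMIs, the level that 3 UMIs would give is used as its limit, and the exact 95% limit is given beside it. With 1 library per condition there is no replicate check, and no p-value is given for these comparisons. A gene was counted as differing between 2 libraries when its CPM ratio was 2 or more and its CPM was at least 20 in the higher library. A gene that was low in 1 of the libraries could thus enter through the other.

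Krt8 and Krt18 lie on chromosome 15 with their annotated starts 23698 bases apart and their transcription directed away from each other. Krt8 (ENSMUSG00000049382) spans chr15:101996698-102004482 on the minus strand, and Krt18 (ENSMUSG00000023043) chr15:102028180-102032027 on the plus strand, in GRCm38 with GENCODE M21. Dsp lies at chr13:38151294-38198577, Pkp4 at chr2:59160850-59355208, Pkp2 at chr16:16213318-16272712, Pkp3 at chr7:141078218-141090510, Krt19 at chr11:100140810-100148665 and Pkp1 at chr1:135871395-135919207. All 10 members are protein coding. RefSeq promoter entries (GRCm38.p6, 250 bases before the start) were used for 4 of the members, Krt8, Krt18, Dsp and Pkp4. No entry was matched for Krt19, Pkp1, Pkp2 and Pkp3, and Dsg2 and Dsc2 were left out. The bases that GENCODE places upstream of the gene's first start are printed 5′ to 3′, with matches on either strand to a TATA box (TATAA), to CCAAT or to the GC box motif (GGGCGG) in capitals.
Krt8 (chr15:102004483-102004592, minus strand): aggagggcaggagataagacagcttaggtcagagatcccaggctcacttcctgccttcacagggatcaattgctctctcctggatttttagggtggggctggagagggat
Krt18 (chr15:102027966-102028179, plus strand): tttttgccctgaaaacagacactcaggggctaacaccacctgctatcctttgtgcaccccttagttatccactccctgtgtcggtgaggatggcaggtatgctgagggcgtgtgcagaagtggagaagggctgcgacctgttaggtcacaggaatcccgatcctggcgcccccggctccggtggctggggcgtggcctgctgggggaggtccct
Dsp (chr13:38151044-38151293, plus strand): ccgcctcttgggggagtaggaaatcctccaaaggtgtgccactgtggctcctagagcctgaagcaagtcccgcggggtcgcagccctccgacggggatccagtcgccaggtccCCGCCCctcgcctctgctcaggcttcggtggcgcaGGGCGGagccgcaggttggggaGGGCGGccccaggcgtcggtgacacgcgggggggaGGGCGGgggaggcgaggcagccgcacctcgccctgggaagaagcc
Pkp4 (chr2:59160600-59160849, plus strand): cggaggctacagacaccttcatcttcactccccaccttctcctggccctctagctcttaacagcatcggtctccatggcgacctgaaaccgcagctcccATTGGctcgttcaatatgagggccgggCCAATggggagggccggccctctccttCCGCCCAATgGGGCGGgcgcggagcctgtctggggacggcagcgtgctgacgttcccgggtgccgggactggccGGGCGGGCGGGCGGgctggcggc

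Over 250 bases, the Krt18 promoter had a TATAA, at bases 19 to 15 before the RefSeq start and downstream of the printed bases, a motif found in 22.8% of the 32851 promoters of the table. The Krt8 promoter had none of the motifs searched, which also included TGANTCA, present in 6.75% of all promoters and in none of these 4. Dsp had 4 copies of GGGCGG, the GC box bound by Sp1-type factors, and Pkp4 had 5 copies, of which 3 near the start overlap each other. That motif was in 32.7% of all promoters. Pkp4 also had 3 copies of CCAAT, 1 of them overlapping a GC box, a motif in 33.8% of all promoters. G and C made up 58.0% of the bases for Krt8 and 60.4% for Krt18, against 72.4% for Dsp and 68.4% for Pkp4. The matches describe letters in these windows only.

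The clearest difference lay in the simple-epithelium keratins. Krt8 stood at 544 CPM (518 to 572) in JupLow and 531 CPM (499 to 563) in the wild-type serum library, where their intervals overlap. It was at 148 CPM (103 to 206) in the serum/LIF gel library, 12.7 CPM (10.4 to 15.3) in wild type in 2iLIF and 11.1 CPM (8.21 to 14.8) in the library labelled JupHigh. The last pair overlap too, so by counting error alone Krt8 took 3 levels over the 5 libraries. These intervals do not allow for UMIs that cluster in few cells. In gel the 35 Krt8 UMIs lay in 12 of the 112 cells.

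Krt18, the filament partner of Krt8, followed the same order down to the gel library. Its levels were 299 CPM (280 to 320) in JupLow, 247 CPM (226 to 269) in the wild-type serum library and 55.0 CPM (29.3 to 94.1) in gel. They were 5.57 CPM (3.57 to 8.28) in JupHigh and 0.845 CPM (0.340 to 1.74, from 7 UMIs) in 2iLIF. Unlike those of Krt8, the Krt18 counting intervals thus did not overlap between the libraries with the lowest levels. The 24 Krt18 UMIs of JupHigh lay in 15 of 2153 cells. Krt19, a type I keratin without a tail domain, was at 28.7 CPM (21.8 to 37.2) in the wild-type serum library and 25.0 CPM (19.6 to 31.5) in JupLow. It had 6 UMIs (0.724 CPM) in 2iLIF, 4 UMIs (0.928 CPM) in JupHigh and 0 UMIs in gel, where 0 UMIs allows up to 12.7 CPM (exact limit 15.6).

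Dsp, which links the plaque to keratin filaments, showed the order of Krt8, at a lower level in every library. It was at 78.2 CPM (68.3 to 89.1) in JupLow, 55.0 CPM (45.3 to 66.2) in the wild-type serum library, 25.4 CPM (9.32 to 55.3, from 6 UMIs) in gel, 3.98 CPM (2.74 to 5.59) in 2iLIF and 3.25 CPM (1.78 to 5.45) in JupHigh. Dsc2, the desmocollin, was detected in the serum/LIF libraries JupLow (13.9 CPM, 9.93 to 18.9), wild type (11.9 CPM, 7.62 to 17.7) and gel (2 UMIs, 8.47 CPM). It had 0 UMIs among the 8284254 UMIs of the 2iLIF cells, which allows up to 0.362 CPM (exact limit 0.445). The JupHigh table had no column for Dsc2, which was taken as 0 UMIs and then allows up to 0.696 CPM (exact limit 0.856). Pkp3, a plakophilin found in most epithelia, was at 17.0 CPM (12.6 to 22.5) in JupLow, 12.9 CPM (8.42 to 18.9) in wild type and 16.9 CPM (4.61 to 43.4) in gel. It was at 4.18 CPM (2.47 to 6.60) in JupHigh and 1.33 CPM (0.663 to 2.38) in 2iLIF.

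The other desmosomal members did not follow the keratins across all 5 libraries. Dsg2, the desmoglein of simple epithelia, was at 35.1 CPM (28.6 to 42.6) in JupLow and 34.2 CPM (30.3 to 38.4) in 2iLIF, at 23.8 CPM (17.5 to 31.5) in the wild-type serum library, 16.9 CPM (4.61 to 43.4) in gel and 14.8 CPM (11.4 to 19.0) in JupHigh. Pkp2, the plakophilin of simple epithelia and heart muscle, was at 89.3 CPM (78.7 to 101) in JupLow, 54.1 CPM (49.2 to 59.3) in 2iLIF, 44.6 CPM (35.9 to 54.8) in the wild-type serum library, 38.1 CPM (17.4 to 72.3) in gel and 23.0 CPM (18.7 to 28.0) in JupHigh. Among the serum/LIF libraries the point values of Dsg2 and Pkp2 kept the order of Krt8. Both were, however, at least as high in 2iLIF, where the keratins were near their lowest, as in the wild-type serum library. Pkp4 varied least, between 66.4 CPM (61.0 to 72.2) in 2iLIF and 123 CPM (113 to 134) in JupHigh. Pkp1, a plakophilin of stratified epithelia, had 0 to 36 UMIs per library and at most 4.35 CPM, in 2iLIF.

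**Figure D1:**
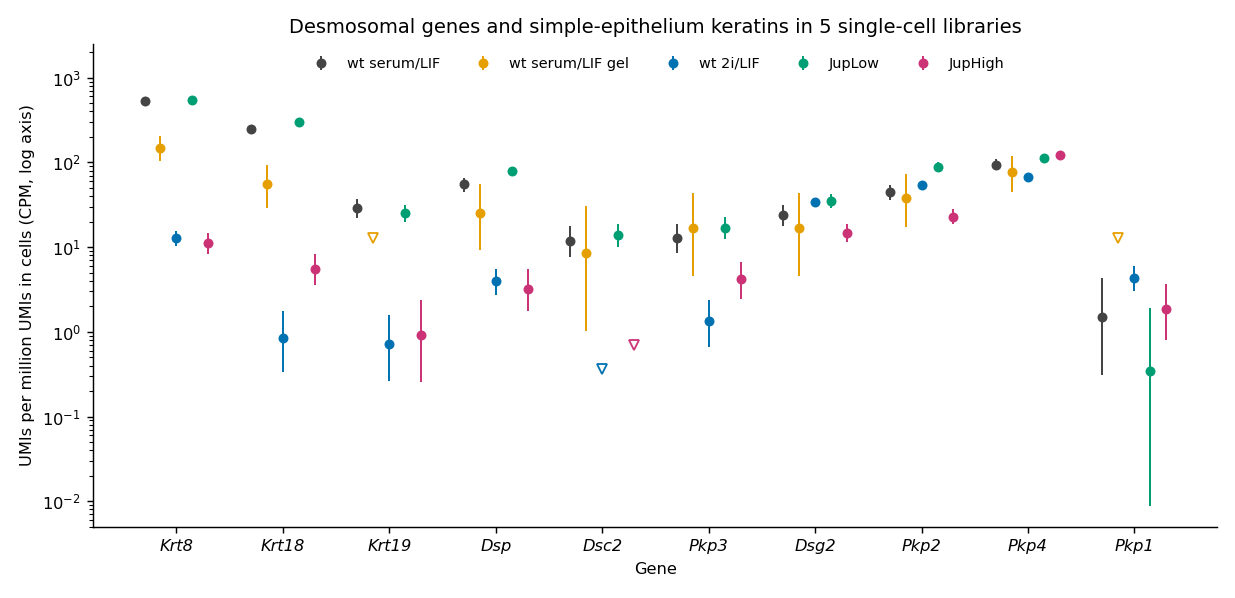
CPM (log axis) of the 10 genes in the 5 single-cell libraries, as points with exact 95% Poisson intervals. Open triangles mark 0 UMIs, or a missing column for Dsc2 in JupHigh, and stand at the CPM of 3 UMIs. Krt8, Krt18, Krt19 and Dsp drop from the serum/LIF wild-type and JupLow libraries to 2iLIF and JupHigh, while Pkp4 stays between 66.4 and 123 CPM.

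The libraries labelled JupHigh and JupLow share medium, substrate and promoter. With barcodes of at least 1000 UMIs their comparison gave the longest list of members that differed. Of the 7 members at 20 CPM or more, 6 were lower in JupHigh by 2-fold or more and 0 were higher. Over all 6953 genes at that level 8.44% were lower by as much and 2.63% higher, 11.1% in all. Krt8, Krt18, Krt19, Dsp and Dsg2 reached 20 CPM in JupLow only, so they entered through the library where they were high. With 1 CPM added to each value, the median log2 ratio was -3.75 over the 7 members and -0.13 over all genes at that level. Without that addition the members' median is the value of Dsp, -4.59. Krt8 was 48.9-fold lower (36.7 to 66.6), from 48 against 1567 UMIs. Krt18 was 53.8-fold lower (35.9 to 84.4), Krt19 27.0-fold (10.1 to 102) and Dsp 24.1-fold (14.0 to 44.7). The plakophilin Pkp2 was 3.89-fold lower (3.07 to 4.95) and Dsg2 2.36-fold (1.71 to 3.29). The intervals of Pkp2 and Dsg2 overlapped each other and lay below those of the keratins and Dsp. Dsc2, whose missing JupHigh column was taken as no UMIs, was at least 19.97-fold lower with 3 UMIs as the limit (exact 95% limit 15.5-fold). Pkp3 was 4.08-fold lower (2.33 to 7.44), but both stayed under 20 CPM. Pkp4, with a ratio of 1.096 (0.952 to 1.26), was the member without a difference past counting error at that level. The log2 ratio of Dsg2 moved from -1.24 to -0.82 with barcodes of at least 500 UMIs and to -0.67 with every deposited barcode, both short of 2-fold, which left 5 members counted as lower. With at least 500 UMIs 10.6% of 6924 genes differed, and JupHigh against wild type in serum/LIF also had 5 of 7 members, so the list was then no longer than that one.

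The other 4 comparisons all share the wild-type serum library as control, so their ratios are not independent of each other. In JupHigh, 4 of 7 members were lower than in that control and 0 higher, where 15.0% of 7371 genes were lower by 2-fold or more and 7.94% higher (22.9% in all). Krt8 was 47.7-fold lower (35.7 to 65.1), Krt18 44.3-fold (29.4 to 69.8), Krt19 31.0-fold (11.5 to 117) and Dsp 16.9-fold (9.68 to 32.0). Pkp2 fell just short of the limit at 1.94-fold lower (1.44 to 2.61), Dsg2 was 1.60-fold lower (1.08 to 2.37) and Pkp4 had a ratio of 1.31 (1.104 to 1.55). With barcodes of at least 500 UMIs 5 of 7 members differed by 2-fold or more, where 23.4% of 7472 genes did.

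JupLow differed little from the same control. Krt8 had a ratio of 1.03 (0.948 to 1.11), Krt18 1.21 (1.09 to 1.36), Krt19 0.870 (0.607 to 1.25), Dsp 1.42 (1.13 to 1.80), Dsg2 1.48 (1.04 to 2.13) and Pkp4 1.19 (0.993 to 1.43). Of the 7 members 1 was counted as higher, Pkp2 at a ratio of 2.00 (1.57 to 2.57), against 6.02% of 7377 genes higher and 7.67% lower (13.7% in all). With barcodes of at least 500 UMIs that count was 0. The library labelled JupLow and the wild-type serum library were thus within 1.21-fold of each other for Krt8 and Krt18, and both lay far from JupHigh.

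The wild-type libraries in 2iLIF and in serum/LIF differed in much the same way. The 2iLIF table held 1 barcode under 500 UMIs against 5905 in the wild-type serum table. With 1 library each, medium and library cannot be told apart. In 2iLIF 4 of 7 members were lower than in serum/LIF and 0 higher, where 15.3% of 7693 genes were lower and 11.6% higher (26.9% in all). Krt8 was 41.9-fold lower (34.2 to 51.7), Krt18 292-fold (141 to 730), Krt19 39.7-fold (17.2 to 113) and Dsp 13.8-fold (9.29 to 21.0). Dsc2 was at least 32.8-fold lower by the 3-UMI limit (exact 95% limit 24.7-fold) and Pkp3 9.70-fold (4.63 to 21.8), both under 20 CPM. In contrast, Dsg2 had a ratio of 1.44 (1.05 to 1.99), Pkp2 1.21 (0.965 to 1.54) and Pkp4 0.705 (0.597 to 0.836). Dsp, Dsc2 and Pkp3 were thus lower together with the keratins and Pkp4 was lower by less, while Dsg2 and Pkp2 were not lower. Pkp1 had a ratio of 2.92 (0.924 to 14.8).

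In serum/LIF, the gel library had 4 of 7 members lower than plastic and 0 higher, where 14.2% of 7662 genes were lower and 9.06% higher (23.3% in all). Krt8 was 3.58-fold lower (2.56 to 5.17), from 35 against 1071 UMIs, and Krt18 4.48-fold (2.60 to 8.48), from 13 against 498. Krt19 had 0 against 58 UMIs and was at least 2.26-fold lower by the 3-UMI limit, but the exact 95% limit of 1.78-fold lies short of 2-fold. Dsp was 2.17-fold lower, but its interval (0.964 to 6.03) included no difference, as did those of Dsg2, Dsc2, Pkp1, Pkp2, Pkp3 and Pkp4. The gel values rest on 112 cells, and the 6 Dsp UMIs came from 3 of them. The Dsp call was lost, leaving 3 members, in 4 other settings. Its log2 ratio moved from -1.11 to -0.52 with barcodes of at least 500 UMIs and -0.83 with at least 2000 UMIs. It was -0.82 without barcodes above 3 times the median and -0.33 with every barcode. With at least 500 UMIs 19.2% of 7485 genes differed, and the shares of all genes in the other settings are not given here.

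**Figure D2:**
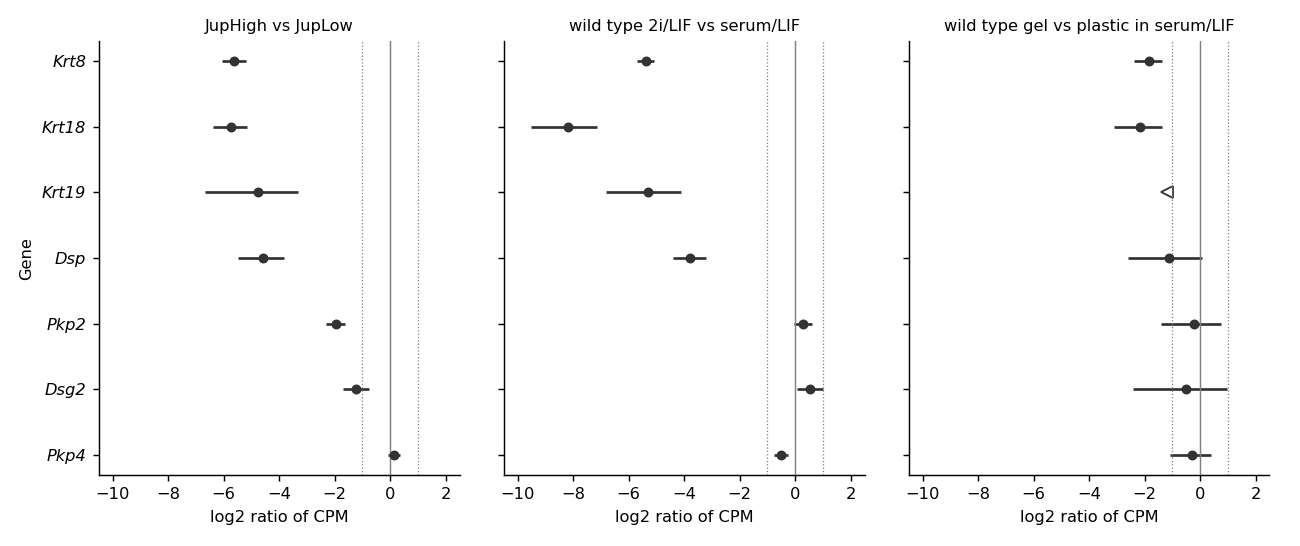
Log2 ratio of CPM of the 7 members at 20 CPM or more in 3 library comparisons, with exact 95% intervals for counting error; dotted lines mark 2-fold and the open triangle is a limit from 0 UMIs. The keratins and Dsp lie far left of 0 for JupHigh against JupLow and for 2iLIF against serum/LIF, and the gel ratios are smaller, with -1.84 for Krt8.

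Keratin UMIs were concentrated in a minority of cells. To compare cells of unequal depth, each was thinned to 1000 UMIs. A UMI of Krt8 or Krt18 was then found in 27.6% of wild-type serum/LIF cells (24.4% to 31.0%), 29.4% of JupLow cells (26.8% to 32.1%), 8.04% of gel cells (3.74% to 14.7%), 1.52% of 2iLIF cells (1.11% to 2.04%) and 0.929% of JupHigh cells (0.568% to 1.43%). Without thinning the shares were 40.0%, 40.5%, 17.9%, 3.53% and 1.81% in the same order. At this depth the intervals of the first 2 libraries overlapped and lay above those of the other 3. Thinned to 2000 UMIs, which 45 gel cells reached, the gel share was 24.4% (12.9% to 39.5%), and its interval overlapped those of the wild-type serum library (28.5% to 37.6%) and JupLow (31.3% to 38.6%).

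A single keratin UMI did not mark a cell in these data. At a common depth of 200 UMIs, barcodes of 200 UMIs to under 500 UMIs, too small to be kept as cells, had such a UMI in 15.0% of cases in the wild-type serum library and 19.4% in JupLow, against 11.03% and 10.2% of the cells. In gel and JupHigh the small barcodes gave 3.42% and 0.819% and the cells 2.68% and 0.279%. Shares at 1 UMI are therefore not read as shares of keratin-expressing cells. Higher counts behaved differently: 3 or more keratin UMIs in 200 were found in 7 of 725 wild-type serum/LIF cells (0.966%, 0.389% to 1.98%) but in 4 of 5904 small barcodes (0.0678%, 0.0185% to 0.173%). In JupLow they were found in 10 of 1200 cells (0.833%, 0.40% to 1.53%) and 6 of 4405 small barcodes (0.136%, 0.050% to 0.296%).

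Cells with 5 or more keratin UMIs in 1000 were seen in 2 libraries only, 29 of 725 cells (4.0%, 2.69% to 5.69%) in the wild-type serum library and 62 of 1200 (5.17%, 3.98% to 6.57%) in JupLow. There were 0 of 112 in gel, which allows a share of up to 2.68% by 3 cells (exact limit 3.24%), 0 of 2889 in 2iLIF (0.104%, exact limit 0.128%) and 0 of 2153 in JupHigh (0.139%, exact limit 0.171%). Just below that number, 31 wild-type serum/LIF and 46 JupLow cells had 3 or 4 UMIs, as did 5 JupHigh cells, and just above it 13 and 35 cells had 5 or 6. The count has no gap there, so 5 UMIs is a cut through a range of counts. Counts this small spread by sampling and cannot show whether the keratin-rich cells form a class, which was not tested. The richest 10% of cells held 71.0% of the thinned keratin UMIs in the wild-type serum library and 69.7% in JupLow, and single cells reached 133 and 74 UMIs before thinning. Cells with 5 or more were somewhat deeper before thinning than cells with 0, with medians of 2843 against 2424 UMIs and 2567.5 against 2281 UMIs.

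**Figure D3:**
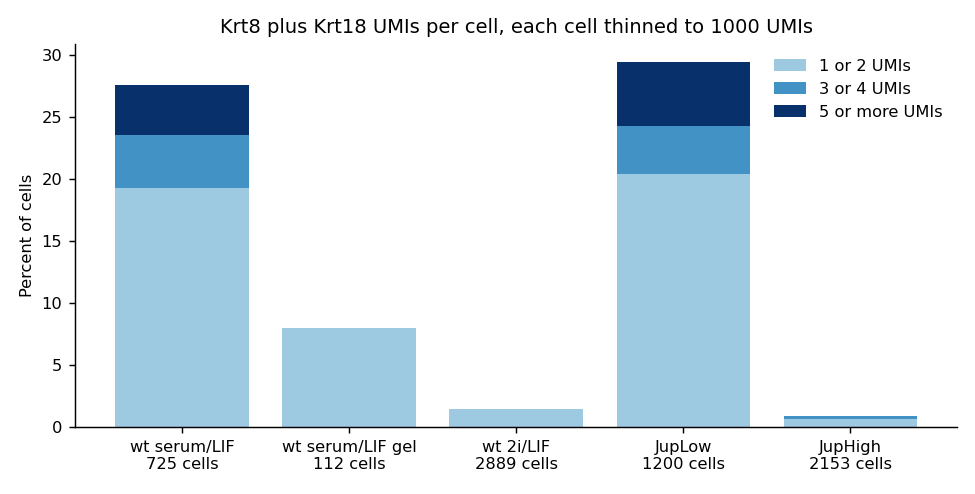
Percent of cells with 1 or 2, 3 or 4, and 5 or more Krt8 plus Krt18 UMIs after thinning each cell to 1000 UMIs, stacked by library. Cells with 5 or more UMIs (4.0% and 5.17%) appear in the wild-type serum/LIF and JupLow libraries.

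Within the wild-type serum, JupLow and JupHigh libraries, detection of Krt18 went with that of Krt8, and in JupLow detection of Dsp went with the keratins. The Krt18 intervals overlapped in gel (1 of 7 cells with a Krt8 UMI and 2 of 105 without) and in 2iLIF (0 of 40 and 4 of 2849). Krt18 was detected in 34.7% of wild-type serum/LIF cells with a Krt8 UMI (27.1% to 42.9%) and in 8.70% of cells without one (6.52% to 11.3%), and in 42.3% (36.3% to 48.5%) against 9.22% (7.44% to 11.3%) in JupLow. In JupHigh, 4 of 17 cells with a Krt8 UMI had Krt18 (23.5%, 6.81% to 49.9%), against 0.140% of the others (0.0290% to 0.410%). Small barcodes did not show this pairing: at 200 UMIs their Krt18 shares with and without a Krt8 UMI were 6.08% and 6.95% in the wild-type serum library and 10.5% and 10.1% in JupLow, while those of cells were 13.8% (6.15% to 25.4%) and 3.30% (2.08% to 4.95%), and 20.9% (12.9% to 31.0%) and 3.23% (2.27% to 4.45%). Dsp was detected in 16.4% of JupLow cells with a Krt8 or Krt18 UMI (12.7% to 20.7%) and 2.13% of the others (1.26% to 3.34%). At 200 UMIs Dsp was in 4.92% of JupLow cells with a keratin UMI (1.83% to 10.4%) and 0.649% of the others (0.261% to 1.33%), against 0.821% and 0.873% of small barcodes. In the wild-type serum library the Dsp shares at 1000 UMIs were 6.50% (3.51% to 10.9%) and 2.67% (1.46% to 4.43%), whose intervals overlap. Krt19 showed 5.38% against 0.472% in JupLow and 5.50% against 0.762% in wild type. Dsc2 (3.68% against 0.354%) and Pkp3 (4.25% against 0.708%) were likewise more often found in keratin-positive JupLow cells, with intervals that do not overlap. So was Pkp2, with 11.3% (8.22% to 15.1%) against 6.26% (4.72% to 8.11%), although its level in 2iLIF did not follow the keratins. In the wild-type serum library the intervals overlapped for each desmosomal member, with 1.5% against 0.381% for Dsc2, 1.5% against 0.762% for Pkp3 and 5.0% against 4.38% for Pkp2. At 200 UMIs Krt19, Dsc2, Pkp2 and Pkp3 were seen in too few keratin-positive cells (0 to 3 in either library) to set beside the small barcodes, so the part of free RNA in their shares was not tested. The JupLow Pkp4 shares were 9.63% and 9.56%, so Pkp4 was as frequent without keratin as with it, and for Dsg2 (4.82% and 2.72%) the intervals overlapped. Over thinned JupLow cells the correlation of log2(UMI + 1) with Krt8 was 0.55 for Krt18, 0.30 for Dsp and 0.04 for Pkp4, a description over 1200 cells of 1 library.

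Marker lists were then counted in the keratin-rich cells as cells with at least 1 UMI of a list, at 1000 UMIs. Of the 62 JupLow cells with 5 or more keratin UMIs, 50% (37.0% to 63.0%) had a UMI of the 8 ES cell markers, against 80.8% (77.9% to 83.4%) of the 847 cells with 0. The 29 wild-type serum/LIF cells gave 44.8% (26.4% to 64.3%) against 81.5% (77.9% to 84.8%). Smooth muscle markers, of which Acta2 and Tagln encode contractile proteins, were found in 95.2% of the keratin-rich JupLow cells (86.5% to 99.0%) and 30.3% of those with 0 (27.3% to 33.6%), and in 68.97% (49.2% to 84.7%) against 18.5% (15.2% to 22.1%) in wild type. Primitive endoderm markers, among them the matrix gene Sparc, were in 75.8% against 30.1% in JupLow and 55.2% against 41.7% in wild type, where the intervals overlapped. Fibroblast markers were rare, with 4.84% and 0% of keratin-rich cells, and trophoblast markers, of which Krt7 is itself an epithelial keratin, were found in 19.4% and 13.8%, against 2.24% and 2.10% of cells with 0. Surface ectoderm markers were in 38.7% against 11.6% in JupLow and 34.5% against 11.4% in wild type, and for both lists the intervals did not overlap. The highest genes of the surface ectoderm list were Sfn and Perp, and Perp is also a desmosomal gene. In JupLow Sfn alone was at 147 CPM of the 249 CPM summed over the list, so these shares do not stand for the list as a whole. At 200 UMIs smooth muscle markers were in 35.2% of JupLow cells with a keratin UMI (26.8% to 44.4%) and 12.6% of those without (10.7% to 14.7%), but in 33.4% and 30.3% of small barcodes, whose intervals overlapped. The wild-type serum values were 28.8% and 4.96% in cells and 15.9% and 14.7% in small barcodes. Small barcodes thus held these markers too, but not more often beside keratin, as cells did. Primitive endoderm markers at 200 UMIs were in 35.0% of wild-type serum cells with a keratin UMI (24.7% to 46.5%) and 14.1% of those without (11.5% to 17.0%), against 28.9% and 30.2% of small barcodes. The JupLow shares were 19.7% (13.0% to 27.8%) and 9.74% (8.04% to 11.7%), against 7.27% and 9.49%. Surface ectoderm shares did not overlap in the wild-type serum library, with 9 of 80 cells (5.28% to 20.3%) against 1.24% (0.537% to 2.43%), but did in JupLow, with 9.84% (5.19% to 16.6%) against 4.08% (2.98% to 5.44%). The ES cell marker shares at that depth overlapped in both libraries, with 26.2% (18.7% to 35.0%) against 32.9% (30.1% to 35.8%) in JupLow and 27.5% (18.1% to 38.6%) against 29.9% (26.4% to 33.6%) in wild type. Small barcodes of the wild-type serum library had an ES cell marker in 40.9% of cases with a keratin UMI and 42.5% without. For the trophoblast list 0 and 1 keratin-positive cells had a UMI at that depth, too few to compare.

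Summed over libraries, the 7 smooth muscle markers moved with the keratins. They reached 877 CPM in the wild-type serum library, 207 CPM in gel, 5.79 CPM in 2iLIF, 1330 CPM in JupLow and 26.2 CPM in JupHigh. Acta2 was at 552 CPM in JupLow and 8.82 CPM in JupHigh, and Tagln at 613 and 5.10 CPM. The 12 primitive endoderm markers were at 2306, 546, 264, 626 and 315 CPM in the same library order, the 7 surface ectoderm markers at 201, 114, 44.7, 249 and 42.5 CPM, and the 8 fibroblast markers at 39.6, 4.23, 3.50, 28.5 and 6.26 CPM. Trophoblast markers summed to 9.05 to 41.3 CPM and mesoderm markers to 8.33 to 25.4 CPM, and Cdx2 had 3 UMIs in JupLow. The sum of the 8 ES cell markers ran the other way, with 1981, 2985, 3333, 2206 and 3807 CPM, and the first of these includes no Sox2 UMI. Single markers were mixed. In 2iLIF against serum/LIF 4 of the 8 were higher by 2-fold or more, Sox2 among them, and 2 lower, where 11.6% and 15.3% of all genes were. In JupHigh against JupLow 4 were higher and 0 lower, where 2.63% and 8.44% of all genes were. The part of other cell states in the keratin differences was not tested.

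**Figure D4:**
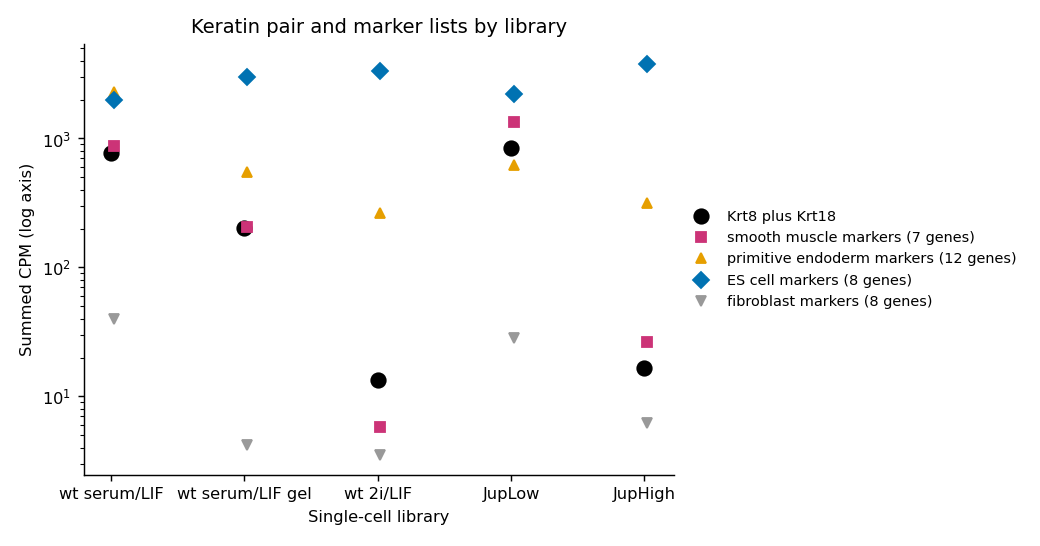
Summed CPM (log axis) of Krt8 plus Krt18 and of 4 marker lists in each single-cell library. Smooth muscle markers follow the keratin pair from 1330 CPM in JupLow to 26.2 CPM in JupHigh, while the ES cell markers are highest in JupHigh, at 3807 CPM.

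Other genes of the pathway were taken from fixed lists and compared between JupHigh and JupLow by the same limits. Of the other desmosomal genes 2 of 11 reached 20 CPM: Perp, a tetraspan protein of desmosomes, was 8.62-fold lower in JupHigh (41 against 236 UMIs), and Jup had the ratio given above. Among 22 other keratins only Krt42 reached the level, with 23.7 against 13.9 CPM, and Krt7 had 0 UMIs in JupHigh and 42 in JupLow. Intermediate filaments and their linkers had 3 of 9 lower and 0 higher. Lmnb1, a nuclear lamin, had a ratio of 1.04 (0.950 to 1.13) and Vim, the mesenchymal filament vimentin, 0.951 (0.837 to 1.08). Tight junction and epithelial surface genes had 8 of 12 lower and 0 higher, with a median log2 ratio of -1.14, again with 1 CPM added to each value. Cdh1 (E-cadherin) was 2.07-fold lower and the adhesion molecule Epcam 2.32-fold lower. Of 5 epithelial transcription and splicing factors 1 was lower, the splicing regulator Esrp1 at 2.13-fold, and Klf5 had a ratio of 1.29 (1.12 to 1.49). Against the 8.44% of all genes that were lower, the junction genes thus stood on the side of the keratins, by much smaller folds. In 2iLIF against serum/LIF the tight junction list had 8 of 12 lower, where 15.3% of all genes were, and Perp was 28.7-fold lower. In gel against plastic the tight junction list had 2 of 13 higher and 0 lower, where 9.06% of all genes were higher and 14.2% lower.

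The genes most like the keratin pair were found by a fixed rule. Over the 5 libraries, and among 2434 genes at 100 CPM or more in a library, Myl6, Sptbn1, Plk2, Atxn10 and Dusp1 had the highest Pearson correlation of log2(CPM + 10) with Krt8 plus Krt18, all between 0.996 and 0.999. Such values over 5 points are a description of the shared order of libraries only. Myl6, a myosin light chain, ran from 791 CPM in JupLow and 773 CPM in the wild-type serum library to 336 CPM in 2iLIF and 347 CPM in JupHigh. Over 1200 thinned JupLow cells, among 3239 genes seen in at least 5% of them, Tagln (0.52), Tpm1 (0.47), Nlrp4e (0.45), Tceal9 (0.43) and Tmsb4x (0.42) were closest. In wild-type serum/LIF cells the same 5 genes had correlations of 0.39, 0.47, 0.43, 0.35 and 0.45. Nlrp4e, a member of the Nlrp family, was at 93.8 CPM in JupLow and 100 CPM in the wild-type serum library but at 1.39 CPM in JupHigh and 1.33 CPM in 2iLIF.

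In the replicated bulk comparison of gel and plastic in 2iLIF, no tested member passed the threshold. Only Dsg2 and Pkp4 had enough reads for the test, and limma with Benjamini-Hochberg adjustment called 0 of these 2, against 36.9% of the 7878 genes tested (18.3% higher and 18.6% lower in gel). At an unadjusted limma p under 0.05 the count was also 0, where 3713 of the 7878 genes passed. With edgeR and DESeq2 on the recovered reads it was 0 too, and their counts over all genes are not given here. The groups overlapped for both, where they did not for 49.5% of the genes tested.

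Dsg2 had values of 63.2, 45.4 and 37.1 in the gel libraries and 53.2, 58.3 and 51.6 on plastic, in reads scaled by the authors. The gel values spread around the plastic ones, with means of 48.6 ± 13.3 and 54.4 ± 3.50 (SD, n = 3). By limma, gel over plastic was -0.19 on the log2 scale, with an SE of 0.20, a 95% interval of -0.60 to 0.22 and an adjusted p of 0.464. It was -0.40 (adjusted p 0.124 by limma) without gel replicate 1 and -0.019 (adjusted p 0.948 by limma) without gel replicate 3. Pkp4 had 44.0, 31.9 and 39.8 in gel and 41.1, 39.1 and 41.0 on plastic, means of 38.6 ± 6.14 and 40.4 ± 1.12 (SD, n = 3). Its limma estimate was -0.08 on the log2 scale, with an SE of 0.19, a 95% interval of -0.48 to 0.33 and an adjusted p of 0.780. Both intervals thus leave out a 2-fold difference in either direction. In bulk RNA, fewer cells that express a gene and less RNA per cell cannot be told apart.

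The other 4 members with a row were too low for the test. Pkp2 was at 1.13, 6.14 and 1.37 in gel and 6.65, 7.43 and 10.6 on plastic, from 7 reads in all gel libraries and 42 in all plastic libraries. Every gel value lay below every plastic value, a separation also seen for 49.5% of the genes tested. The highest gel value came from 5 reads, each worth 1.23. The gel libraries held 707718 to 866721 reads and the plastic ones 637235 to 2583256, so the summed reads are not at equal depth. Without the filter on low reads limma gave it -1.65 on the log2 scale with an SE of 0.59 and an adjusted p of 0.0481, the single call of a member in the settings run, where 23.6% of the 12583 genes then tested were called. Dsp was at 3.39, 4.91 and 4.12 in gel and 6.23, 4.70 and 13.7 on plastic, and the groups overlapped. Krt8 was at 3.39, 2.46 and 10.99 in gel, from 3, 2 and 8 reads, and 2.91, 3.91 and 3.04 on plastic, from 7, 10 and 2 reads. Without the filter limma gave Krt8 0.44 on the log2 scale with an SE of 0.59 and an adjusted p of 0.639, and its 95% interval of -0.80 to 1.67 includes a 2-fold rise. The groups overlapped, and 1 gel library held most of the gel reads. Pkp3 was at 2.26, 3.68 and 5.50 in gel and 4.16, 4.30 and 0 on plastic.

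**Figure D5:**
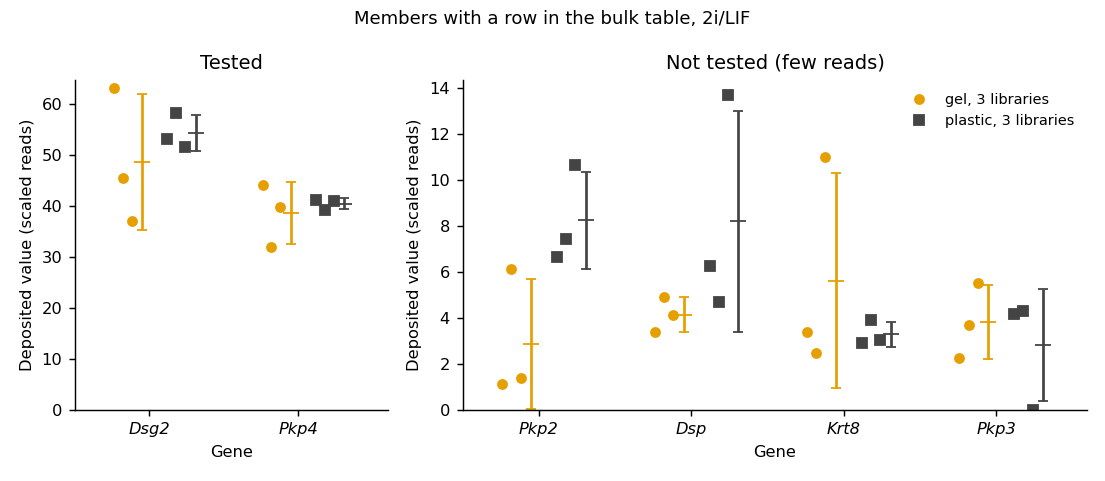
Deposited values (scaled reads) of the 6 members in the bulk table, with 3 gel and 3 plastic libraries as points and the mean with SD beside them. The groups overlap for every gene except Pkp2, whose gel values of 1.13 to 6.14 lie below the plastic values of 6.65 to 10.6. Of the genes tested 49.5% had groups that do not overlap.

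Jup, which encodes the plaque partner plakoglobin, was the one other desmosomal gene with enough reads for the test, and it rose in gel. It had 96.6 ± 5.93 in gel and 16.4 ± 12.1 on plastic (SD, n = 3), a limma difference of 2.74 on the log2 scale with an SE of 0.31. Perp was too low to test, with means of 3.40 and 5.41. Of the other keratins Krt42 was tested, with 36.3 ± 10.1 in gel and 31.6 ± 4.52 on plastic and a limma estimate of 0.17 on the log2 scale with an adjusted p of 0.580. Over all genes tested 18.3% rose and 18.6% fell in gel, beside which the counts of these short lists are to be read. Among tight junction and epithelial surface genes 2 of 9 rose, 2 fell and 5 did not pass, Cdh1 among them at 0.11 on the log2 scale with an SE of 0.14. Intermediate filaments and linkers had 3 of 5 higher and 0 lower, with Vim at 235 ± 16.8 against 128 ± 10.2 (SD, n = 3). Of 4 tested epithelial factors 1 rose and 1 fell, Klf5 and Elf3. Smooth muscle and mesoderm markers had no row in the bulk table. Sparc, the highest primitive endoderm marker, had 207 ± 11.7 in gel and 201 ± 19.6 on plastic (SD, n = 3), while Lama1, the other one tested, rose from 12.5 ± 3.69 to 24.7 ± 1.04 (SD, n = 3; limma adjusted p 0.0117), and the ES cell markers had 5 of 8 higher and 2 lower.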

How the data were processed

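The bulk table holds a signal deposited by the authors: gene reads divided by a size factor per library, which the values show, since 100% came out as whole reads within 0.01 reads once divided by the worth of 1 read. Single-cell values are whole UMI counts per barcode and gene, as deposited. The submitters' processing notes name FastQC, STAR, featureCounts, DESeq2, Scanpy, mm10 and GRCm38, without roles. Whether counting used strand is not given in the sources used here. Because the bulk values are not raw counts, limma 3.58.1 (trend) was fitted to log2(value + 0.5) over 7878 genes, with Benjamini-Hochberg adjustment. edgeR 4.0.16 and DESeq2 1.42.0 on the recovered reads were alternatives. A simulated test recovered 95.5% of 200 genes changed 4-fold. The labels do not say that replicates came from separate cultures, so the p-values measure the spread between these libraries. UMIs were summed per library over barcodes of at least 1000 UMIs, no doublet caller was run, and thinning used a fixed seed. The members and gene lists were chosen with earlier results of these data known. Genes named were the members, genes that overlap them, up to 3 list genes by level and the 5 most like the keratin pair. Krt7, Klf5, Sparc, Lama1, Cdx2, Sox2 and Myl12a were added after their values were seen.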

Additional observations from a re-analysis of the deposited data

Results flagged for a closer look

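Keratin UMIs were also present in barcodes of under 500 UMIs, which were not kept as cells and are outside the levels and ratios reported. Krt8 plus Krt18 had 1826 UMIs there in the wild-type serum library, 26 in gel, 1932 in JupLow and 21 in JupHigh. As a share of all UMIs this was 841 CPM against 778 CPM in the cells of the wild-type serum library and 142 against 203 CPM in gel. It was 1050 against 844 CPM in JupLow and 36.3 against 16.7 CPM in JupHigh. The order of the libraries was the same in small barcodes and in cells for these 4 tables.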

How the results depend on the processing

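Bulk calls of members stayed at 0 in all settings run except without the low-read filter, which gave 1 of 6, against 23.6% of 12583 genes. No paired reading was made: same-numbered gel and plastic libraries correlated at -0.05, 0.02 and 0.02, and the fit with the replicate block called 0 members and 2988 genes. Leaving out 1 library called 0 members and 2361 to 2833 genes. The Pkp4 bulk estimate changed sign when reads were thinned to the shallowest library (0.015) and ranged from -0.18 to 0.05 (0.051 without gel replicate 2) over left-out libraries; it passed no threshold. Among members with no overlapping gene the 2-fold count was 3 of 4 for JupHigh against JupLow and 2 of 4 each for JupHigh against wild type, 2iLIF against serum and gel against plastic, where 11.1%, 22.9%, 26.9% and 23.3% of all genes at that level passed. That setting and the one without the keratin-richest cells were chosen after seeing the data. For JupLow against wild type the count was 0 of 7 with barcodes of at least 500 UMIs (13.6% of all genes) and 2 of 10 with no minimum CPM (42.8%). With no minimum it was 9 of 10 for JupHigh against JupLow (41.1%) and 7 of 10 for 2iLIF against serum (57.7%). JupHigh against wild type then gave 6 of 10 (53.5%) and gel against plastic 5 of 10 (57.4%), both near the share of all genes. The share of cells with a Krt8 or Krt18 UMI moved with depth and with the cells deep enough to enter: thinned to 2000 UMIs (45 of 112 cells in gel, 958 of 2153 in JupHigh) and unthinned it was 32.9% and 40.0% in the wild-type serum library, 24.4% and 17.9% in gel, 2.29% and 3.53% in 2iLIF, 34.9% and 40.5% in JupLow, and 1.88% and 1.81% in JupHigh. Without the 10 keratin-richest cells, which were chosen on the value measured and are a larger share of a small library, it was 1.96% in gel and 0.560% in JupHigh. In the same setting log2 ratios moved from -1.84 to -4.30 for Krt8 and from -1.11 to -3.31 for Dsp in gel against plastic, and from -5.61 to -6.40 for Krt8 and -5.75 to -7.44 for Krt18 in JupHigh against JupLow. Of 234 values of single genes under these settings 226 kept their sign and 8 changed it: Pkp4 in bulk as above, Krt19 for JupLow against wild type, and Dsg2, Pkp2 and Pkp4 for gel against plastic, all with intervals that include no difference. With 1 library per single-cell condition, no difference between those conditions has a replicate check.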
